A study of Strongylocentrotus purpuratus and Patiria miniata with 14 samples.

Results

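The long accessible regions of the purple sea urchin are 161 stretches of open chromatin that were at least 1000 bp long when the ATAC-seq peaks of all 8 sea urchin libraries were merged. They were chosen by their measured length and calls: peaks overlapping by at least 1 bp were joined, the mitochondrial genome was left out, and a region had to hold a peak in all 6 libraries of the later stages. The 161 are 0.139% of 115446 merged sea urchin regions and 1.70% of the 9465 regions with a peak in all 6 later libraries. The other 9304 of these, called shorter regions here, are what the long regions are set beside. Wild-type whole embryos of the sea urchin *Strongylocentrotus purpuratus* were profiled with 2 replicates at each of 4 stages. These were the early blastula at 11 hours post fertilization (hpf), the mesenchyme blastula at 24 hpf, the prism at 66 hpf and the pluteus larva at 72 hpf. The late gastrula of the sea urchin was not analysed here, and the series also holds 6 libraries of the bat sea star *Patiria miniata*. Whole embryos mix all cell types, so a region open in few cells and a region weakly open in many cannot be told apart. Whether the replicates are separate cultures is not stated, and what differs between them may be technical.

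ATAC-seq uses a transposase that inserts sequencing adapters where DNA is not wrapped tightly in nucleosomes. Open stretches mark promoters, enhancers and other cis-regulatory elements, the sites where transcription factors bind and set when and where genes are active. A typical element opens over a short stretch, whereas broad domains, made of several neighbouring sites or of 1 wide site, are known from promoters and from clustered enhancers of developmental genes in vertebrates. A peak caller marks where reads exceed the local background. The summit of a peak is the position of its highest signal, and each listed peak has 1 summit.

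Each library gave its own peak list. After the mitochondrial peaks were left out, the lists held 34914 and 25453 peaks at 11 hpf, 39503 and 31103 at 24 hpf, 35178 and 56842 at 66 hpf and 37999 and 19459 at 72 hpf (replicate 1, then replicate 2). The lists give no read counts, so the depth behind a peak is unknown here, and where no peak was listed the chromatin need not be closed. The second list of 66 hpf held the most peaks, and 55 of them were at least 1000 bp long, against 0 to 15 in each of the other 7 lists. The second list of 72 hpf held the fewest peaks and had none that long.

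Long regions were mostly little longer than the length that defined them. Their median was 1082 bp (quartiles 1032 and 1182 bp), the longest was 1963 bp and all together covered 183 kb. Of the 161, 90 measured under 1100 bp, 32 measured 1100 to under 1200 bp, 31 measured 1200 to under 1500 bp and 8 measured 1500 bp or more. Shorter regions had a median of 488 bp (range 114 to 998 bp), and 190 of them measured at least 900 bp. The 5 long regions nearest the limit measured 1000, 1000, 1000, 1000 and 1001 bp, and the 5 shorter regions nearest to it 998, 997, 994, 994 and 994 bp. Those just inside started at 296812 on NW_022145599.1, 17745911 on NW_022145603.1, 19071046 on NW_022145605.1, 18031005 on NW_022145611.1 and 22555451 on NW_022145610.1. Those just outside started at 15030758 on NW_022145596.1, 8295476 and 33802390 on NW_022145610.1, 25368838 on NW_022145603.1 and 14669241 on NW_022145613.1. The limit therefore falls within a run of like lengths and marks no break.

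Joining across lists made many of the regions long. In 68 of the 161, some list held a single peak of at least 1000 bp, and in 93 none did. The longest single peak of a region had a median of 977 bp and ranged between 396 and 1544 bp. Peaks of the later lists alone spanned at least 1000 bp in 141 regions, and 11 hpf peaks lengthened 47 regions, by a median of 72 bp and by at most 497 bp. When the 4 first replicates were merged without the second ones, the 161 had a median length of 990 bp and 76 were at least 1000 bp long. The 4 second replicates gave a median of 1001 bp and 84 such regions. A length of at least 1000 bp was reached in both of these mergings by 40 regions and in neither by 41. One list weighed most: without the second list of 66 hpf, 98 regions met the rule. Another 32 merged regions were at least 1000 bp long but lacked a peak in some later list, and 23 of these had none in the small second list of 72 hpf.

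The longest region lies on NW_022145611.1 of Spur_5.0 from 27890642 to 27892604 and measured 1963 bp. The bp under its peaks numbered 965 and 888 at 11 hpf, 735 and 593 at 24 hpf, 1155 and 1440 at 66 hpf and 1341 and 501 at 72 hpf. Its 11 hpf peaks lengthened it by 497 bp, and all 6 later lists placed a summit between 1161 and 1228 bp from its start. The next longest, on NW_022145597.1 from 6146549 to 6148335 (1787 bp), held 26 peaks over the 8 lists and had no position with a summit in all 6 later lists. Next came a region on NW_022145597.1 from 22214996 to 22216725 (1730 bp) with 1358 and 1269 bp called at 11 hpf, 1253 and 1214 bp at 24 hpf, 1093 and 1071 bp at 66 hpf and 838 and 466 bp at 72 hpf, fewer at each later stage. The remaining 7 of the 10 longest started at 42198317 on NW_022145612.1 (1651 bp), 2020350 on NW_022145601.1 (1583 bp), 45942399 on NW_022145594.1 (1544 bp), 2921339 on NW_022145603.1 (1519 bp), 7137296 on NW_022145614.1 (1500 bp), 22320882 on NW_022145607.1 (1492 bp) and 29020789 on NW_022145615.1 (1389 bp). They were not alike: the region of 1544 bp was 1 unbroken peak in the second list of 66 hpf and had 132 bp called in 1 of the 11 hpf lists, while the region of 1583 bp had no single peak over 642 bp in any list.

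**Figure D1:**
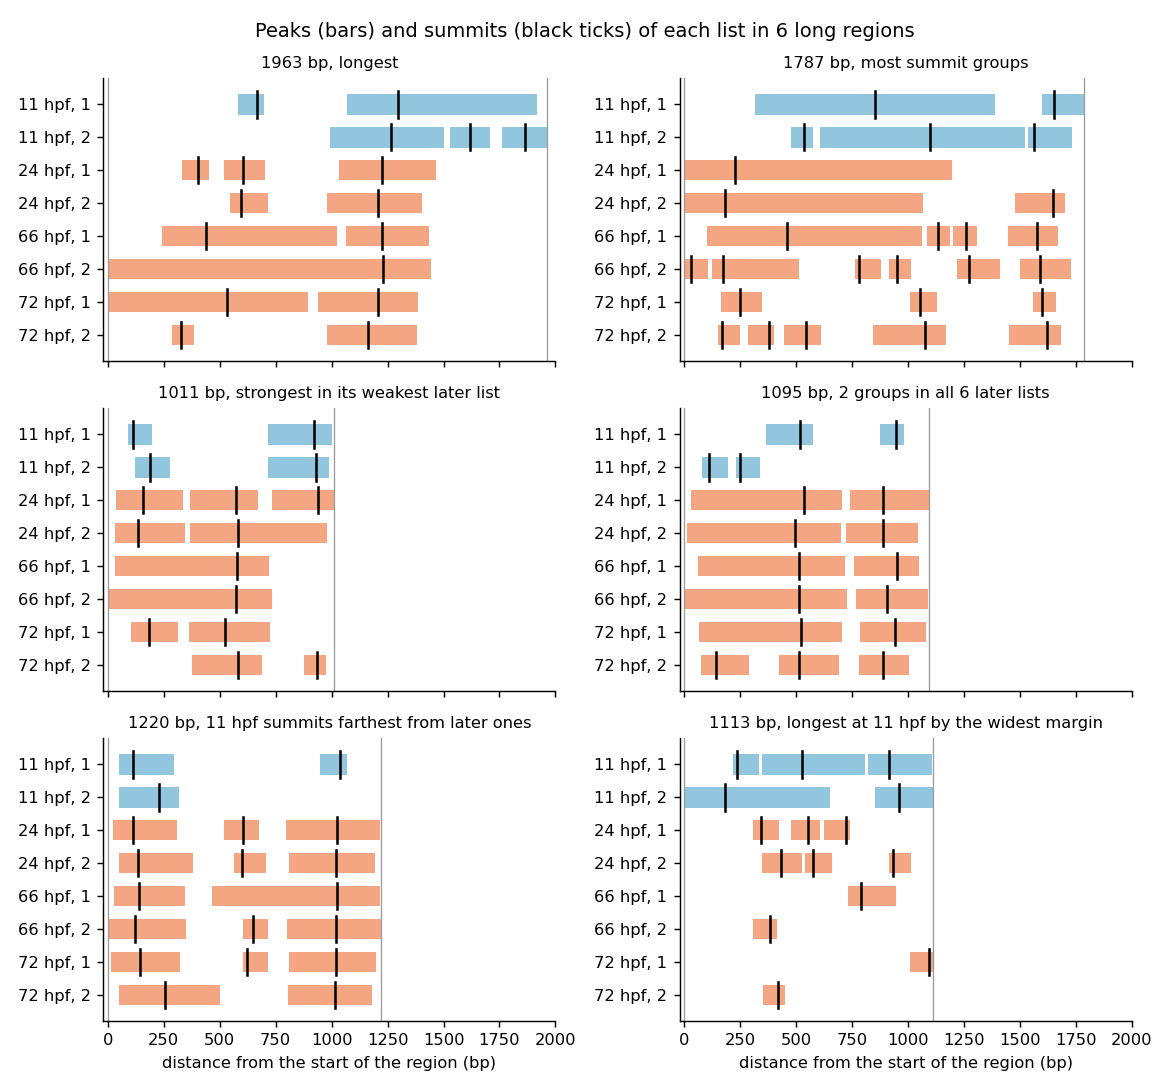
Peaks (bars, 11 hpf in blue and later stages in orange) and summits (black ticks) of each of the 8 lists in 6 long regions, by distance from the start of the region in bp, with the replicate number after the stage. The region of 1095 bp shows the same 2 peaks in all later lists, whereas in the region of 1787 bp the peaks differ between lists.

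Long regions held more summits per list than shorter ones. In a single later list, a long region had 1.57 to 2.09 summits on average and a shorter region 1.09 to 1.20. A region had 1 summit only in 26.7 to 59.6% of long regions, depending on the list, against 82.2 to 92.2% of shorter regions. The highest number was 6, reached in the second list of 66 hpf by the region of 1787 bp and in the first list of 24 hpf by the region of 1519 bp. More sequence has room for more summits. Per kb of region the order turned, with 1.38 to 1.84 in long regions against 2.12 to 2.35 in shorter ones. Every region held at least 1 summit in each later list by choice, which sets a higher floor per kb in shorter regions. The order per kb is therefore not independent of the choice. The second list of 66 hpf, with the most peaks, had the fewest summits per long region, and in it 55 of the 161 regions were covered to at least 90% by 1 peak. In the other later lists 0 to 19 were.

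A smaller share of summit groups was common to many lists in long regions than in shorter ones. Summits of the 6 later lists that lay at most 50 bp from the next were joined into groups, which gave 777 groups in the 161 regions, a median of 5 per region and a range of 2 to 11. Of the groups, 363 (46.7%) came from a single list, against 31.8% in shorter regions, and 55 (7.08%) were shared by all 6 lists, where shorter regions had 3424 of 21351 groups. Long regions had more groups each, since the median in shorter regions was 2. By region the sets lay closer: 52 long regions (32.3%) and 36.7% of shorter ones had a group in all 6 lists. Groups shared by at least 4 of the 6 lists are called recurrent. There were 171 of these: 30 regions had none, 93 had 1, 36 had 2 and 2 had 3. Regions with several recurrent groups made up 23.6% of long regions and 2.84% of shorter ones. The share was 10.2% of long regions without the second list of 66 hpf, where 4 of 5 lists were asked for. The strongest summits of all 6 later lists lay within 100 bp of each other in 36 long regions (22.4%) and 35.6% of shorter regions. Their median spread was 303 bp in long and 128 bp in shorter regions, where the region itself limits the spread. Peaks of different lists at different places also lengthen a merged region, and a shorter region leaves summits less room to lie apart. The number and sharing of summit groups are therefore not independent of the choice of members.

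**Figure D2:**
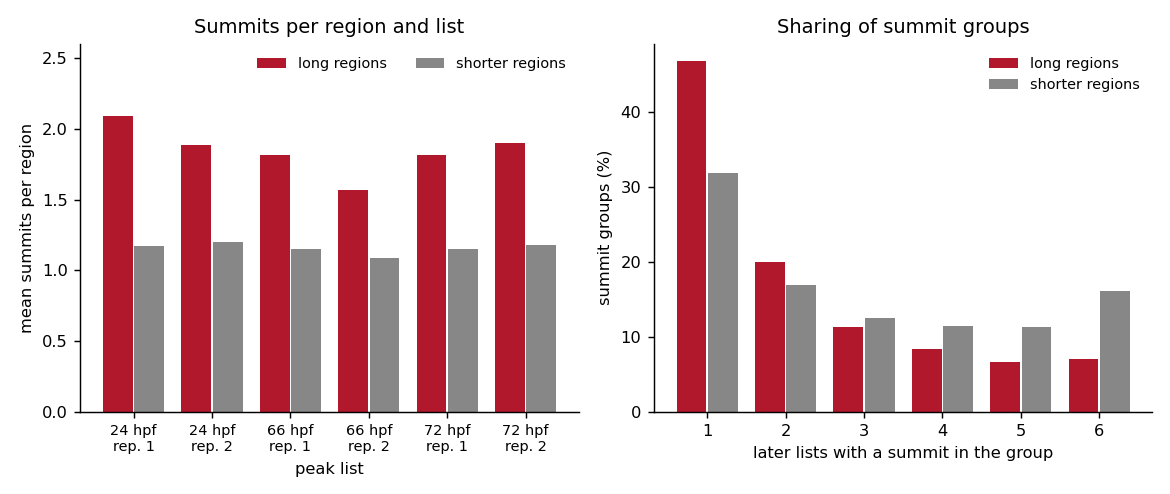
Left, mean number of summits per region in each of the 6 later lists, in long (red) and shorter (grey) regions. Right, percentage of summit groups against the number of later lists that have a summit in the group; groups of a single list made up 46.7% in long and 31.8% in shorter regions.

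Of the 5 long regions with the most summit groups, 4 had no recurrent one. After the region of 1787 bp with 11 groups, the regions of 1583 and 1519 bp had 10 groups each, none of them recurrent. A region on NW_022145604.1 from 4700489 to 4701647 (1159 bp) also had 10 groups and no recurrent one, with no 11 hpf peak and 219 to 726 bp called in the later lists. The fifth, on NW_022145614.1 from 5987575 to 5988731 (1157 bp), had 9 groups, none of them recurrent, with 242 to 1002 bp called in the later lists. A region of 1112 bp on NW_022145599.1, which starts at 7592910, equalled it with 9 groups.

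At the other end, 3 regions had 2 groups with a summit in every later list, a pattern picked out after its values were seen. The region on NW_022145604.1 from 8324233 to 8325327 (1095 bp) had summits at 495 to 538 and at 888 to 952 bp from its start in all 6. In the region on NW_022145603.1 from 24957774 to 24958839 (1066 bp) they lay at 140 to 166 and 561 to 583 bp. In the region on NW_022145599.1 from 14567913 to 14568930 (1018 bp) they lay at 171 to 229 and 725 to 787 bp. In each of the 3, both sites kept their place across 24, 66 and 72 hpf. At 11 hpf the first had peaks of 318 and 226 bp in all, the second none, and the third 139 bp in replicate 1 only. Shorter regions included 5 such pairs among 9304.

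Neighbouring summits of 1 list lay a median of 422 bp apart in long regions (quartiles 301 and 584 bp, range 64 to 1462 bp, 817 pairs over the 6 later lists). In shorter regions the median was 261 bp over 8688 pairs, where the region itself limits the distance. The median in long regions was 408 to 471 bp in 5 of the later lists and 347 bp in the second list of 72 hpf. At 11 hpf it was 364.5 and 361 bp. The distances were not spread evenly. In long regions 13.3% of pairs lay 100 to under 200 bp apart, 10.5% lay 200 to under 300 bp apart and 20.8% lay 300 to under 400 bp apart, and shorter regions showed the same dip, with 34.7%, 21.5% and 22.9%. Between the 2 peaks of a pair, the stretch that was not called had a median of 67 bp in long regions (11 to 874 bp), against 29 bp in shorter ones, and it was 50 bp or less in 43.3% against 73.1% of pairs. Neighbouring recurrent groups lay farther apart, at a median of 585 bp over 40 pairs in long regions and 288 bp over 266 pairs in shorter ones.

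**Figure D3:**
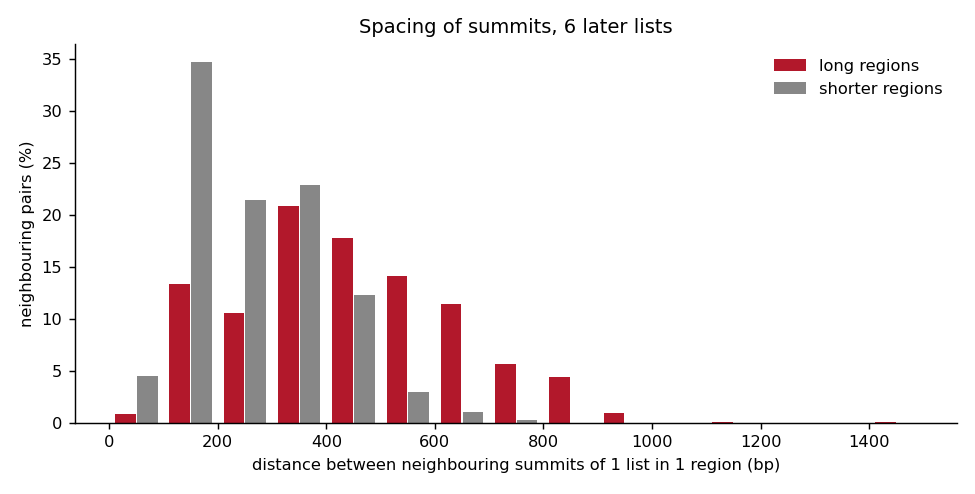
Distance between neighbouring summits of 1 list within 1 region, in bins of 100 bp, as a percentage of 817 pairs in long regions (red) and 8688 pairs in shorter regions (grey), over the 6 later lists. Both sets have fewer pairs at 200 to under 300 bp than in the bin on either side.

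Long regions were called over much less of their length at 11 hpf than later. The median bp under peaks per long region were 352 and 284 at 11 hpf, 779 and 656 at 24 hpf, 812 and 985 at 66 hpf and 844 and 524 at 72 hpf, in the regions with a peak in the list. In shorter regions they were 249 and 248, 359 and 316, 358 and 431, and 373 and 276. As a share of the region, the long ones were covered to 47.8 to 90.7% in the later lists and to 32.2 and 24.9% at 11 hpf.

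To compare the same regions, the 96 long regions with a peak in all 8 lists were used. Their medians per list averaged 776 ± 134 bp in the 6 later lists and 357 ± 85.2 bp in the 2 lists of 11 hpf (SD over lists, n = 6 and 2). The difference was 419 bp, or 2.17 times. The values did not overlap, with 564.5 to 960 bp in the later lists against 296.5 and 417 bp at 11 hpf. The 2962 shorter regions with a peak in all 8 lists averaged 390 ± 52.7 bp in the later lists and 262 ± 5.66 bp at 11 hpf, a difference of 128 bp, or 1.49 times. List by list, the median of long regions was 1.82 to 2.07 times that of shorter ones in the later lists, and 1.57 and 1.15 times at 11 hpf. Both kinds of region were chosen by calls in all 6 later lists, and 6 of the 8 lists that set the length of a region are later ones. The choice of members and the stage therefore cannot be told apart here, and the differences are given as a description with no test.

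**Figure D4:**
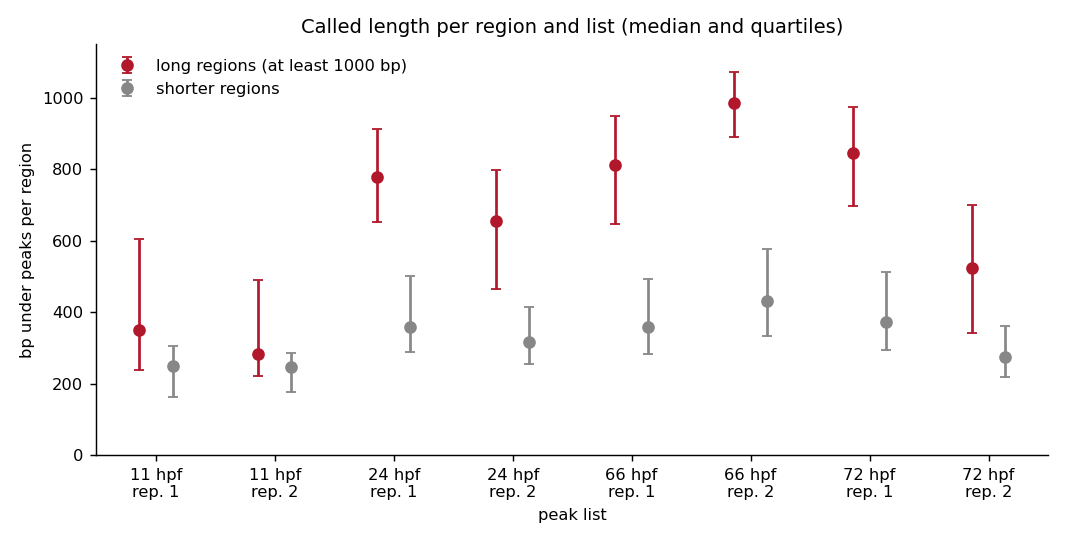
Bp under peaks per region in each of the 8 lists, as the median (point) and quartiles (bars), in long regions (red, left of each pair) and shorter regions (grey). Long regions have medians of 524 to 985 bp in the later lists and of 352 and 284 bp at 11 hpf.

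Among the later stages, lists differed widely within a stage. Over the 161 regions, the mean of the 2 list medians was 718 ± 87.0 bp at 24 hpf, 899 ± 122 bp at 66 hpf and 684 ± 226 bp at 72 hpf (SD, n = 2), so the SD at 72 hpf was larger than the difference between any of these means, and with 2 lists against 2 an exact test cannot go below p = 0.333. Single regions whose lists of a stage lay above or below all 4 other later lists were about as frequent as in all 9465 regions. Both 24 hpf lists lay above in 8 of the 161 regions (background 5.10%) and below in 11 (7.98%). Both 66 hpf lists lay above in 37 (18.9%) and below in 0 (0.528%). Both 72 hpf lists lay above in 1 (1.15%) and below in 18 (12.5%). The 66 hpf lists include the largest one and the 72 hpf lists the smallest, and the part of list size in these counts was not tested.

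Long regions had 11 hpf peaks more often than shorter ones. The choice of members asked for no call at 11 hpf, but 11 hpf peaks help to set the merged length, so this share is not independent of the choice. A peak was present in 126 of the 161 in replicate 1 (78.3%, background over all 9465 regions 48.4%) and in 102 in replicate 2 (63.4%, background 39.5%). Both lists had one in 96 (59.6%, background 32.3%; the 95% exact binomial interval, which covers counting error alone, was 51.6 to 67.3%), and neither in 29 (18.0%, background 44.4%). Among shorter regions 31.8% had a peak in both. The share was 27.5% at 300 to under 400 bp, 40.2% at 600 to under 700 bp, 40.1% at 700 to under 800 bp, 46.3% at 800 to under 900 bp, 41.6% at 900 to under 1000 bp, 54.4% at 1000 to under 1100 bp and 66.2% above. This share was 40.1 to 46.3% between 600 and 1000 bp and higher in both classes of long regions, which held 90 and 71 regions. A peak in at least 1 list of 11 hpf became more frequent in every class from 600 bp on. Its share rose from 65.6% at 600 to under 700 bp to 74.7% at 900 to under 1000 bp. In the long classes it was 80% and 84.5%, so no step at 1000 bp is read from these shares. With regions merged from the 6 later lists alone, 71 of 134 long regions (53.0%) and 31.9% of shorter regions had peaks in both 11 hpf lists. The share was 69.4% without the second list of 66 hpf.

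**Figure D5:**
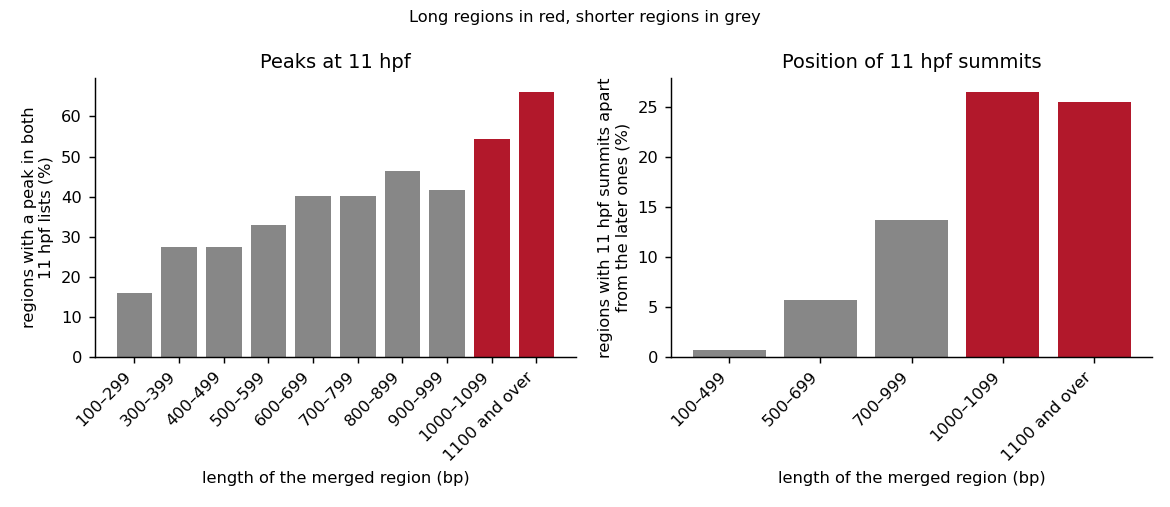
Percentage of regions with a peak in both 11 hpf lists (left) and percentage of regions in which the strongest summits of both 11 hpf lists lay at least 100 bp to 1 side of those of all 6 later lists (right), by length of the merged region in bp, with long regions in red and shorter ones in grey. The right panel covers regions with a peak in all 8 lists and reaches 26.5% and 25.5% in the long classes.

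In 26.0% of the long regions that were called in all 8 lists, the 11 hpf lists had their strongest summits away from those of the later lists. The strongest summit of each list was compared in the 96 long regions. In 25 of them, both 11 hpf summits lay at least 100 bp to the same side of all 6 later ones, by a median of 369 bp (background 5.59% of 3058 regions, and 4.93% of the shorter ones). The share was 0.633% in regions under 500 bp and 13.7% at 700 to under 1000 bp, and it was 26.5% at 1000 to under 1100 bp and 25.5% above. A longer region leaves more room for such a separation, and 11 hpf peaks help to set the merged length. How often summits lay apart is therefore not independent of the choice of members. With regions merged from the later lists alone, 22.5% of long and 5.03% of shorter regions showed it. In that merging, 11 hpf peaks overlapping a region were taken whole, so their summits could lie outside it. Between 24 hpf and the 4 lists of 66 and 72 hpf, such a shift was found in 5 of the 161 regions (3.11%, background 2.06% of 9465).

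The region with the widest shift lies on NW_022145612.1 from 3250512 to 3251731 (1220 bp). Its strongest summits lay between 1013 and 1024 bp from its start in all 6 later lists, and at 113 and 231 bp at 11 hpf. The place marked by the first 11 hpf list was also marked later: 5 of the 6 later lists had a summit at 112 to 146 bp. Nearest to the summit of the second 11 hpf list, 1 later list had a summit at 255 bp. In the region on NW_022145612.1 that starts at 14672619 (1260 bp), the strongest summits lay at 820 to 1057 bp in the later lists and at 112 and 86 bp at 11 hpf. The region of 1177 bp that starts at 31067572 on NW_022145600.1 had them the other way round along the scaffold, at 248 to 397 bp in the later lists and at 1013 and 1112 bp at 11 hpf. Strongest summits of the 2 lists of 11 hpf lay within 100 bp of each other in 47.9% of the 96 regions, and those of lists of different later stages did so in 53.4 to 70.2% of the long regions, so positions at 11 hpf are less certain.

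A further set of long regions was called over more of its length at 11 hpf than at any later stage. In 10 of the 96 (10.4%), both 11 hpf lists had more bp called than any later list (background 1.99% of 3058 regions, and 1.72% of shorter ones), whereas 53 (55.2%, background 47.3%) had less than any later list. The widest margin was in the region on NW_022145601.1 from 8569691 to 8570803 (1113 bp), picked out after its values were seen. Its later peaks alone spanned 804 bp, so it counted as long only through its 11 hpf peaks. It had 863 and 912 bp called at 11 hpf, 366 and 394 bp at 24 hpf, 216 and 106 bp at 66 hpf and 103 and 100 bp at 72 hpf. Its fold enrichments were 5.84 and 5.49 at 11 hpf, 4.03 and 4.92 at 24 hpf and 3.88 to 5.19 in the larval lists. A like order held on NW_022145601.1 from 12556990 to 12558196 (1207 bp), with 1044 and 1175 bp at 11 hpf, 592 and 850 bp at 24 hpf and 127 to 352 bp in the larval lists. The region of 1500 bp among the longest had 1362 and 1324 bp at 11 hpf, 900 and 904 bp at 24 hpf and 282 to 482 bp later. These 3 regions were called over less of their length in the larval lists. Other margins were small: the region of 1730 bp had at least 1269 bp at 11 hpf and up to 1253 bp later, and the region of 1519 bp at least 1351 bp at 11 hpf and up to 1314 bp later. In 5 of the 10, the region of 1113 bp among them, the later peaks alone spanned less than 1000 bp. The 11 hpf peaks that made these 5 long are also the ones counted here. The share of 10.4% is therefore not independent of the choice of members. With regions merged from the later lists alone, 3 of 71 long regions (4.23%) and 1.98% of shorter ones were called longest at 11 hpf. There, 11 hpf peaks reaching out of a region were counted whole, which can raise these shares. Without the second list of 66 hpf, 11 of 68 long regions (16.2%) and 2.41% of shorter ones were.

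Long regions were not the strongest ones. Fold enrichment, the signal at a peak over its local background as the authors' peak caller gave it, was taken for the strongest peak of a region in each list. Its median in long regions was 4.55 and 4.83 at 11 hpf, 7.84 and 7.24 at 24 hpf, 7.73 and 8.83 at 66 hpf and 7.51 and 6.39 at 72 hpf. In shorter regions it was 4.96 and 5.36, 8.50 and 7.35, 8.01 and 9.71, and 8.04 and 6.23, so it was lower in long regions in 7 of the 8 lists. The exception was the second list of 72 hpf. By length class, the median of the 6 later list medians was 8.23 at 1000 to under 1100 bp and 7.07 above. In the classes of shorter regions it was between 7.04 and 8.85, so long regions were not weaker than every shorter class. Ranked by p within their list, the best peaks of long regions nevertheless stood ahead of those of shorter regions, which have fewer peaks to take the best of, in 7 lists, for instance within the strongest 11.5% against 14.1% in the first list of 24 hpf, and behind them in the second list of 11 hpf (17.2% against 15.1%). The strongest summit of a long region also lay off its centre, by a median of 24.1 to 27.2% of the region's length over the 8 lists, against 12.4 to 16.4% in shorter regions.

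The 5 long regions with the highest fold enrichment in their weakest later list were strong at every later stage. On NW_022145604.1 from 13614999 to 13616009 (1011 bp) the values were 10.9 and 10.6 at 11 hpf, 13.2 and 13.3 at 24 hpf, 15.5 and 16.7 at 66 hpf and 16.8 and 13.4 at 72 hpf. All 6 later lists placed a summit in it at 522 to 583 bp, and the strongest summits of 11 hpf lay at 923 and 929 bp. The region on NW_022145614.1 from 10500580 to 10501766 (1187 bp) had 12.3 to 16.5 in the later lists, against 5.70 and 4.86 at 11 hpf. The others were the regions on NW_022145610.1 from 9275619 to 9276653 (1035 bp; 12.1 to 16.4), on NW_022145599.1 from 296812 to 297811 (1000 bp; 11.9 to 14.7) and on NW_022145597.1 from 23159592 to 23160637 (1046 bp; 10.8 to 13.7). In these 3 the 11 hpf values were 4.22 to 6.51, lower than in any later list.

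Genes could be named for 11 of the 161 regions, since the table of elements was used only in a shortened form, and 33490 of the 33503 genes in the table of Spur_5.0 carry no scaffold. No enrichment was therefore tested. The 11 regions were paired with 12 genes by tables that already assign elements to genes. Of the 11 regions, 9 held an end of a gene's span, as a promoter or a gene's 3′ end would. The same share in shorter regions was not counted, so this is no trait of long regions. Which end is the start of transcription is not given in the gene table.

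Transphyletic elements, those listed as conserved across phyla, overlapped 5 of the 11 regions. The first lies at *Msx*, which encodes a homeobox transcription factor, on NW_022145600.1 from 17806758 to 17807775 (1018 bp), with an end of the gene 497 bp from its start. It had 731 and 479 bp called at 24 hpf, 629 and 945 bp at 66 hpf and 754 and 426 bp at 72 hpf, and 203 bp in 1 list of 11 hpf. Its fold enrichments were among the lower ones (4.40 to 5.63 in the later lists), and it had no recurrent summit group. The region inside *HMG1*, named for the high mobility group proteins that bind DNA in chromatin, lies on NW_022145596.1 from 1587482 to 1588525 (1044 bp). It was open over most of its length at every stage, with 677 to 999 bp called in the later lists and 971 and 785 bp at 11 hpf. The region at LOC580818, whose orthogroup holds human *ARID1A* and *ARID1B*, which encode subunits of a chromatin remodelling complex, lies on NW_022145607.1 from 23639080 to 23640320 (1241 bp). It had 404 to 986 bp called in the later lists and 565 and 593 bp at 11 hpf. Regions at LOC589213 (NW_022145602.1, 12109483 to 12110565) and LOC593225 (NW_022145609.1, 7498881 to 7499916) had 379 to 1073 bp and 652 to 941 bp called in the later lists. At 11 hpf they had peaks in the first list only, of 564 bp at LOC589213 and 173 bp at LOC593225. At LOC589213 a recurrent group of 4 lists lay 54 bp from the end of the gene, and at LOC593225 the group of all 6 lists lay 578 bp from it.

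One tested element, CNE17 of *sox14*, a gene for a transcription factor of the SoxB2 group that acts in neural development in vertebrates, lies within a long region on NW_022145597.1 from 22035669 to 22036699 (1031 bp). It had no peak at 11 hpf. Later it had 611 and 495 bp called at 24 hpf, 871 and 1031 bp at 66 hpf and 646 and 342 bp at 72 hpf, so both prism lists lay above the 4 others. The gene had no match in the gene table.

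The 5 regions named from the table of elements alone each held at least 1 end of a gene's span. On NW_022145598.1 from 4074466 to 4075469 (1004 bp), 1 region held ends of a pair of genes. The last base of LOC752406 lies 283 bp and the first base of LOC588760 lies 516 bp from its start. Summits recurred on both sides of the stretch between them, at 122 to 191 bp in all 6 later lists and at 756 to 764 bp in 5 of them. It had 663 to 962 bp called in the later lists, against 431 and 220 bp at 11 hpf. The region at LOC591232 (NW_022145598.1, 16937348 to 16938381) was one of the 25 with shifted summits: the strongest lay at 177 to 275 bp in the later lists and at 746 and 782 bp at 11 hpf, and the gene's end lies at 284 bp. So was the region at LOC584046 (NW_022145598.1, 11318391 to 11319516), in an orthogroup with solute carriers of the SLC5 family, with the strongest summits at 726 to 807 bp in the later lists and at 258 and 155 bp at 11 hpf, and the gene's end at 1077 bp. Weaker summits crossed over between the places there, at 714 bp in the first list of 11 hpf and at 298 bp in the first list of 24 hpf. LOC590023, whose span of 11765163 to 11765659 lies whole within its region (NW_022145598.1, 11765124 to 11766137), had 684 to 777 bp called in the larval lists, below the 961 and 950 bp of 24 hpf. The region at LOC580684 (NW_022145598.1, 27395048 to 27396121) had no peak at 11 hpf and a group of summits in all 6 later lists.

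Long regions were scattered, and few had another long region close by. They were not set against a random placement, so clustering was not tested. They lay on 21 scaffolds, the same 21 that had at least 100 regions with a peak in all 6 later lists, with 2 to 17 on each. NW_022145611.1 had 17, or 2.03% of its 837 such regions, and the shares of the scaffolds ranged between 0.587% on NW_022145594.1 and 2.41% on NW_022145614.1. Neighbouring long regions were a median of 2.88 Mb apart (quartiles 1.02 and 5.63 Mb, 140 pairs), with gaps of 8097 bp to 42.2 Mb. In 5 pairs the gap was under 100 kb, and the closest pair lies on NW_022145612.1, where the later region starts at 54659949. Along the scaffold, the next region with a peak in all 6 later lists was itself long for 2 of the 161 (1.24%), against 1.70% long ones among all such regions. Nor were long regions nearer to other regions of that kind, at a median of 16897 bp against 16617 bp for shorter regions. The nearest merged region of any list lay a median of 2448 bp from a long and 1461 bp from a shorter region, and within 1 kb for 30.4% and 41.5%.

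Long regions made up 1.70% of the sea urchin regions with a peak in all 6 later lists. The sea star lists gave 105823 merged regions, of which 29123 had a peak in all 6 lists. Of these, 724 (2.49%) were at least 1000 bp long, up to 1911 bp. Only these 6 lists were merged there, whereas 11 hpf peaks could also lengthen sea urchin regions. Merging the 6 later sea urchin lists alone gave 134 long and 9331 shorter regions. Sea urchin lists held 19459 to 56842 peaks with median widths of 129 to 241 bp, and sea star lists 56044 to 72079 peaks with median widths of 250 to 260 bp. Species, stage and list size cannot be told apart in this comparison.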

How the data were processed

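Peak lists of 8 sea urchin ATAC-seq libraries were analysed, with the 6 of sea star for 1 comparison. Per the paper's methods and the submitters' processing notes, the authors aligned reads with Bowtie2, removed duplicates with SAMtools, offset read ends for the transposase, kept short fragments and called peaks with MACS2 in each replicate alone, on Spur_5.0 or Pmin_3.0. Versions are not repeated here. The deposited columns used were start, end and summit, the fold enrichment (a ratio of signal to local background) and the −log10 p-value and −log10 q-value, all as the authors' caller wrote them. The weakest listed q was between 0.0169 and 0.0451. Lists hold no counts, so reads, depth and the size of accessibility were not compared between lists.

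Peaks overlapping by at least 1 bp were merged over all 8 lists with Python 3.11.15, numpy 2.4.6, pandas 2.3.3 and scipy 1.17.1, and drawn with matplotlib 3.10.9. The merging was checked against bedtools 2.31.1 and the counting was tested on simulated data. Coordinates are 1-based. Called length is the bp under peaks of 1 list in a region. An exact permutation test of called length over 6 later and 2 early lists was planned. Calls in the same lists chose the regions, so its p is not given and all comparisons are descriptions. Alternatives were a q of at most 0.001, joining by at least 50 bp or across 100 bp, merging later lists alone, equal numbers of top peaks, leaving out each list and the replicate number as a block.

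The regions, measures and lists were chosen with earlier results of these data known, and the shifts of 11 hpf summits and the regions longest at 11 hpf were chosen after seeing the data. Named by rule were the 10 longest regions, the 5 with the highest fold enrichment in their weakest later list, the 5 with the most summit groups, 5 on each side of 1000 bp and those overlapping a tested or transphyletic element, with genes only from tables that pair them. Gene classes were to be set by words in gene descriptions, which the gene table used here does not hold. No genome sequence was used, so no sequence is shown.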

Additional observations from a re-analysis of the deposited data

Results flagged for a closer look

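The longest merged region of the mitochondrial genome, which was left out of all comparisons, measured 768 bp and had a peak in all 8 lists. It is named here because it is a signal in data that the report did not use.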

How the results depend on the processing

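The alternatives are described by their values, with no tally of unchanged results. For called length such a tally would rest on the planned exact permutation test, whose p is not read here. The number of lists alone sets the smallest p that this test can reach. Over the alternatives there were 98 to 382 long regions, against 161 in the main analysis. The difference in called length was 351 to 506 bp, against 419 bp. Joining peaks across gaps of up to 100 bp gave 382 long regions with a median length of 1124 bp and a median gap of 1.09 Mb. With the same number of top peaks in each list (19459), the median number of summits per region and list was 1, against 2, the spacing of summits 480 bp, the share with peaks in both 11 hpf lists 50.4% and the share with several recurrent groups 14.7%. Merging the later lists alone left 4.23% of long regions called longest at 11 hpf, and without sea urchin 66 hpf replicate 2, 16.2% were called longest at 11 hpf and 10.2% had several recurrent groups; these alternatives were added after seeing the data. Leaving out 1 list at a time gave 98 to 160 long regions, a median gap of 2.87 to 4.05 Mb, a share with peaks in both 11 hpf lists of 57.1 to 76.8% (the highest with 1 such list left) and a difference in called length of 351 to 506 bp (506 and 440 bp without the first or the second list of 11 hpf). The lowest number, the widest gap and, with both 11 hpf lists kept, the highest share (69.4%) came without the second list of 66 hpf.

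With the replicate number as a block, the difference in called length was 419 bp, as without it, and no p is read from either. The labels share only numbers between stages, and differences between replicates did not go together across stages (r of -0.172 to 0.128 over 6 pairs of stages, across the 96 long regions, which are not independent). The cause of these changes was not tested. The lists hold no read counts, so what depth limits is unknown, and with 2 lists a stage differences between stages in single regions were not tested.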
